A study of Mus musculus with 16 samples.

Results

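The response of mouse embryo fibroblasts (MEFs) to 16 h of TGFβ was measured in the 2 lines of the series that were followed that long. Ark+/+ cells (WT) and Ark-/- cells (null), which lack the ubiquitin ligase Arkadia, were grown in medium with fetal bovine serum and either left untreated (0 h) or given TGFβ at 2.5 ng/ml for 16 h. These are 4 of the 16 poly(A)-selected RNA libraries of the study, chosen by their labels as the 2 pairs of a 16 h library with the 0 h library of the same line and lettered set (A). The study's design text names 2 batches of sequencing but does not say which library was in which. Set A also holds the 1 h and 4 h libraries of both lines (8 libraries in all). The other 8 libraries, a second set of null cells at 0 and 1 h and of null cells with retroviral wild-type Arkadia or Arkadia carrying the sim mutation at 0, 1 and 4 h, enter the test of the difference between lines and an alternative fit. Each line and time had 1 library in its set. The design text calls the samples independent, but nothing says how many cultures stand behind each. The p-values therefore speak only of how far these libraries scatter, a scatter that may be technical. Each genotype is a single line, so the effect of Arkadia and any other difference between the lines cannot be told apart.

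TGFβ binds a pair of serine/threonine kinase receptors, which phosphorylate SMAD2 and SMAD3. These enter the nucleus with SMAD4 and act at promoters and enhancers, often beside AP-1 factors. The pathway induces its own inhibitors, among them SMAD7 and PMEPA1, and Arkadia is known for degrading SMAD7 and the co-repressors SKI and SnoN. In fibroblasts prolonged TGFβ is best known for driving the contractile, matrix-producing state called the myofibroblast.

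Expression was given as FPKM, fragments scaled to transcript length and to the mapped fragments of the library, for 12100 genes. Total FPKM of the 4 libraries ran from 397488 to 424998, and read depth is unknown. The Arkadia gene Rnf111 stood at 14.6 FPKM at 0 h and 14.5 at 16 h in WT, and at 0.155 and 0.121 in null, so both pairs carried the genotype on their labels. Xist, the long non-coding RNA that silences an X chromosome, stood at 2.75 and 1.79 FPKM in WT and at 51.3 and 46.8 in null, so the lines differed in its level beside their genotype; its part in the results was not tested. Vim, the mesenchymal intermediate filament, stood at 1203 and 1322 FPKM in WT at 0 and 16 h and at 1427 and 1558 in null. The 12 fibroblast markers with values, Vim among them, summed to 1830 and 2335 FPKM in WT and to 6115 and 5921 in null. Their summed level thus differed between the lines, and much of the WT sum was Vim. Across the 10976 genes tested, which are not independent replicates, the Spearman correlation of the 0 and 16 h libraries was 0.963 in WT and 0.948 in null, against 0.881 between the lines at 0 h and 0.884 at 16 h. The lines thus differed more from each other than either did from itself after 16 h of TGFβ.

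By 16 h the risers over both lines included 9 of 37 collagen genes and collagen enzymes, 7 of 26 contractile genes, 7 of 27 TGFβ targets and inhibitors, 3 of 26 integrin and focal adhesion genes and the growth factor genes Pdgfa, Pdgfb and Pdgfc. The fallers included Mest, Bmp4, Igfbp4, Igfbp6 and Akr1c14. With limma on log2(FPKM + 1) over the 8 libraries of the set, with line as a block, 245 of 10976 genes passed an adjusted p of 0.05, which is 2.23%. Of these, 121 rose (1.10%) and 124 fell (1.13%), and 56 rises and 58 falls reached 1 on the log2 scale, a doubling. All 245 moved the same way in both lines, which the test itself favours because it counts a difference between the lines as spread. Leaving out WT 0 h gave 10 calls and leaving out null 0 h gave 13. The count was 63 and 64 when WT or null 1 h was dropped, 118 and 116 when WT or null 4 h was, and 98 when null 16 h was. It was 1561 without WT 16 h, when the estimate rests on null cells alone. With all 16 libraries 2139 of 11045 genes passed (19.4%), and 240 of the 245 were among them in the same direction. Of the 2139, 755 were higher and 1384 lower, and the group counts of that fit given below stand beside these. As deposited 49.4% of the calls were rises, whereas median-ratio scaling gave 153 rises and 97 falls and quantile normalization 148 and 92.

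The 2 pairs share no library, so the lines could be set side by side. A log2 rise of at least 1 was seen in 159 genes in WT (1.45% of the genes tested) and in 242 in null (2.20%), and a fall of that size in 165 (1.50%) and 296 (2.70%). In both lines 70 genes were up by that much, which is 44% of the WT genes and 28.9% of the null genes and 0.638% of all genes. In both lines 58 genes were down by that much, 35.2% of the WT genes and 19.6% of the null genes and 0.528% of all genes. Opposite moves of that size were seen in 19 genes. Of all genes tested 7151 (65.2%) had the same sign in both lines. Of these, 2633 were higher in both and 4518 lower in both, and the same counts for groups of genes given below stand beside these. Pearson's r of the WT and null differences over 10976 genes was 0.299 and Spearman's correlation 0.411. Unreliable rows of 2 kinds entered these figures: small RNA genes, which poly(A) selection captures poorly, and genes listed under 0.1 FPKM in a library and at 5 or more in another. Drosha, the microRNA processing nuclease, had a listed value of 0 for WT 0 h and for null 16 h but of 28.7 FPKM for null 0 h. Without such rows r was 0.506 over 10723 genes, and the opposite genes numbered 2, the guanine nucleotide exchange factor Arhgef1 and the ribosome assembly factor Tsr2. A large change is part of what defines a drop-out gene, so leaving these genes out itself lowers the count of opposite genes and moves r, and the second pair of values is no separate measure of agreement.

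**Figure D1:**
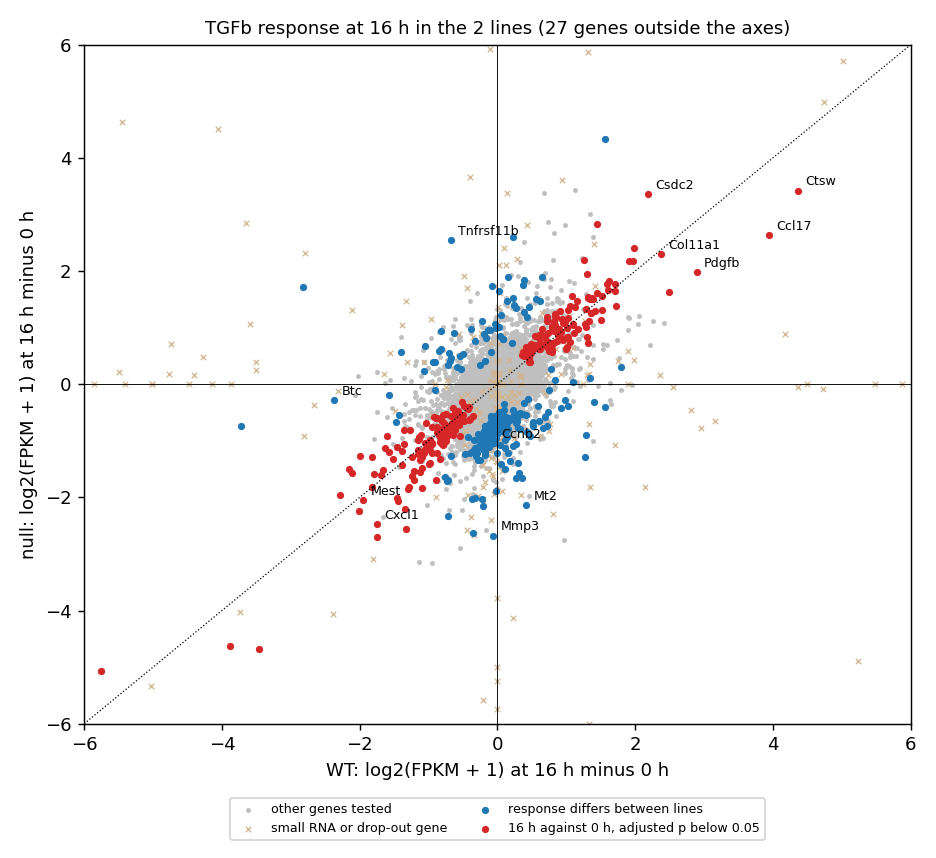
Difference between 16 h and 0 h of TGFβ in WT (horizontal) and null cells (vertical), both as log2(FPKM + 1), 1 point per gene tested and 1 library per line and time. Genes with an adjusted p below 0.05 over both lines (red) lie along the dotted line of equal response, genes whose response differed between the lines (blue, other than red ones) lie off it, and crosses mark small RNA and drop-out genes; 27 genes lie outside the axes.

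The largest rise was that of Ctsw, which encodes the cysteine protease cathepsin W. It went from 1.28 to 45.7 FPKM in WT and from 0.380 to 13.7 in null, 35.8-fold and 36.2-fold. These folds rest on low 0 h values. On the log2(FPKM + 1) scale, which shrinks changes from such levels, the mean difference was 3.89 ± 0.23 (SE, limma adjusted p = 0.00952). The chemokine Ccl17 went from 1.68 to 40.2 FPKM in WT and from 1.53 to 14.7 in null (3.29 ± 0.31, adjusted p = 0.0158). Both 16 h libraries stood well above both 0 h libraries for these genes, and the rise of Ccl17 was larger in WT, by 1.198 ± 0.23 in the test of the difference (adjusted p = 0.0393). Csdc2, a cold-shock-domain RNA-binding protein, rose by 2.77, from 3.37 to 18.8 FPKM in WT and from 1.87 to 28.3 in null. Acsbg1, an acyl-CoA synthetase, rose by 2.19, from 1.25 to 7.91 FPKM in WT and from 0.217 to 5.42 in null. The Notch ligand Jag1 rose by 1.72, from 28.0 to 68.3 FPKM in WT and from 5.30 to 27.7 in null, and Tll1, a tolloid-like metalloprotease, by 1.63. The transcripts 5730559C18Rik and D8Ertd82e rose by 1.72 and 1.68. Of the 15 largest rises Pdgfb, Col11a1, Has2, Pmepa1, Bhlhe40 and Junb belong to the groups described next.

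Among the falls the chemokine Cxcl1, which recruits neutrophils, came down from 15.6 to 3.92 FPKM in WT and from 13.1 to 1.52 in null (mean log2 difference -2.12 ± 0.24, limma adjusted p = 0.0244). Mest, a paternally expressed imprinted gene, stood at 69.7 and 75.7 FPKM at 0 h in WT and null and at 17.3 and 17.6 at 16 h (-1.998 ± 0.21, adjusted p = 0.0187). The lines were nearly level for Mest at either time. Rbp4, the carrier of retinol, fell from 5.73 to 0.946 FPKM in WT and from 5.33 to 1.11 in null (-1.69 ± 0.10, adjusted p = 0.00952). Enzymes that act on steroids and foreign compounds were also among the 15 largest falls. They were the aldo-keto reductase Akr1c14 (-1.84), the microsomal glutathione transferase Mgst1 (-1.47) and the glucuronosyltransferase entries Ugt1a6b (-1.83) and Ugt1a6a (-1.55). The last pair are near-identical and can share reads, so their separate values are uncertain. Neat1, the long non-coding RNA of paraspeckles, fell from 135.7 to 54.5 FPKM in WT and from 99.9 to 27.0 in null. The remaining falls were those of Atoh8, the matrix protein Spon2 (-1.77), the neurite factor Nrn1 (-1.75), the epidermal proteins Sbsn (-1.74) and Ppl (-1.43), the Ral regulator Ralgapa1 (-1.45) and Tnfsf18, a ligand of the tumour necrosis factor family (-1.42). All 30 genes of the largest rises and falls kept their sign when each library was left out in turn, but 2 were past the threshold without WT 0 h, 3 without null 0 h, 11 without either 1 h library, 13 without null 16 h, 18 without either 4 h library and 29 without WT 16 h.

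**Figure D2:**
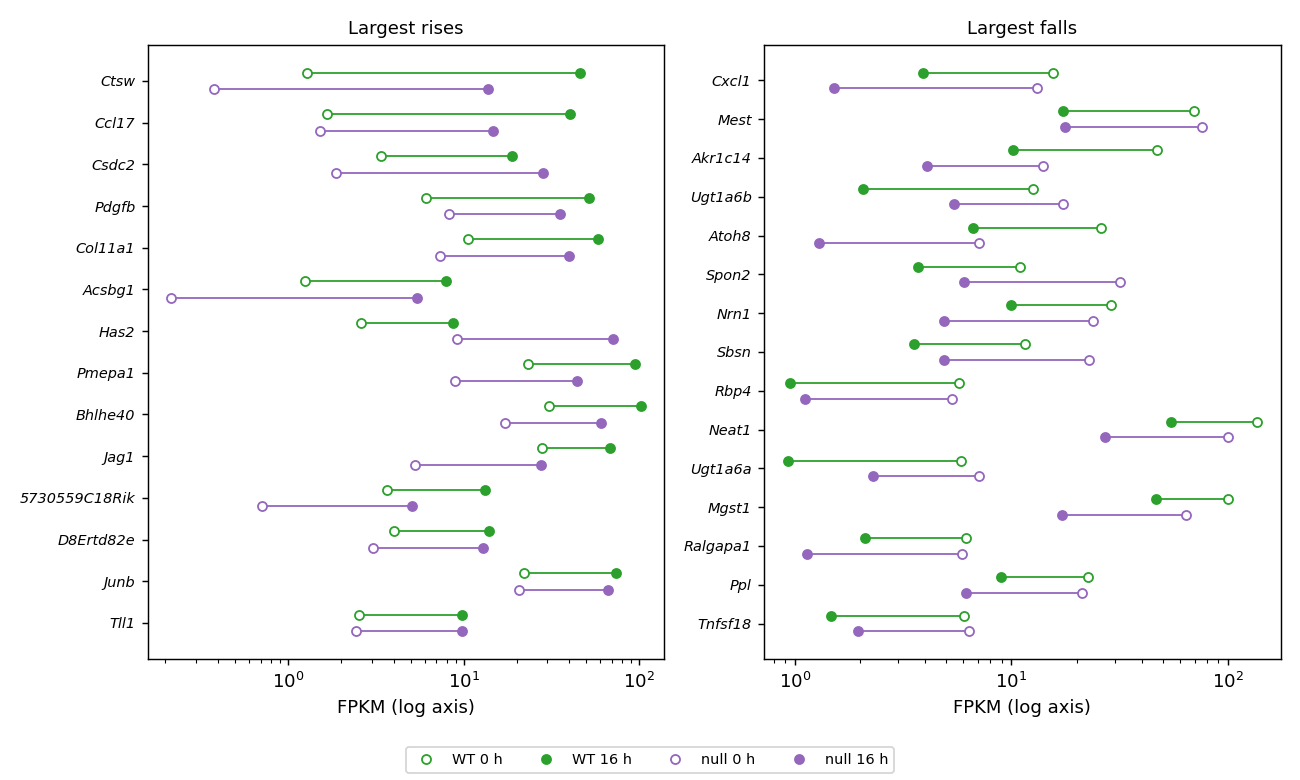
FPKM (log axis) of 14 of the 15 genes with the largest rise and of the 15 with the largest fall among those that passed over both lines, with 0 h as open and 16 h as filled circles, WT in green and null in purple, 1 library per circle. Each line segment runs the same way in WT and null, and the starting level often differs between the lines, as for Jag1 (28.0 and 5.30 FPKM at 0 h).

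Some targets and inhibitors of TGFβ signalling were raised at 16 h. Of 27 tested genes of this group 7 rose and 20 did not pass; 18 were higher in both lines, 3 lower in both and 6 opposite, with a median log2 difference of 0.802 beside -0.0586 for all genes. Pmepa1, a membrane protein that traps receptor-activated SMADs, went from 23.3 to 94.0 FPKM in WT and from 8.95 to 44.2 in null (2.07 ± 0.12, limma adjusted p = 0.00952). Its relative Ldlrad4 rose by 1.55, and Smad7, which targets the receptors for degradation, from 8.21 to 15.3 FPKM in WT and from 5.89 to 12.3 in null (0.89 ± 0.12, adjusted p = 0.0339). The transcription factors Bhlhe40 (1.73), Junb (1.67) and Snai1 (1.44) and the scaffold protein Nedd9 (1.04) were the others. For Smad7 the 16 h values lay below those at 1 h, 40.1 FPKM in WT and 24.4 in null. When all 16 libraries were used 16 of the 27 were higher, whereas 3 passed without WT 1 h, null 1 h or null 16 h, 4 without WT 4 h or null 4 h, 16 without WT 16 h, and the members all missed the threshold without either 0 h library.

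Of 27 genes for ligands, receptors and SMADs of the family 1 passed, and the median was -0.0245. With all 16 libraries 7 were higher and 5 lower, and without WT 16 h 6 were higher and 2 lower. The gene that passed was Bmp4, a ligand of the BMP branch, which fell from 17.04 to 4.84 FPKM in WT and from 29.4 to 13.0 in null (-1.37 ± 0.21, limma adjusted p = 0.0474). Neither median-ratio scaling nor quantile normalization gave this call. Of 13 BMP and Id target genes, 10 were lower at 16 h in both lines and the median was -0.48, but Atoh8, a basic helix-loop-helix factor, was the member that passed. In the fit of all 16 libraries 1 of the 13 was higher and 4 were lower. With a library of the set left out Bmp4 stayed past the threshold only without either 4 h library, and Atoh8 only without WT 16 h. Atoh8 stood at 26.0 FPKM at 0 h, 48.7 at 1 h and 6.63 at 16 h in WT, and at 7.11, 24.4 and 1.29 in null. Id2, a dominant-negative helix-loop-helix protein, was at 52.8 and 15.9 FPKM in WT and 46.3 and 8.31 in null at 0 and 16 h, a log2 difference of -2.01 ± 0.48 that did not pass (adjusted p = 0.103). The ligand gene Inhba, which encodes the activin A subunit, did not pass either (1.49 ± 0.32, adjusted p = 0.0866).

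Of 26 contractile genes tested 7 rose, no member fell and 19 did not pass. In both lines 18 were higher, in both 2 were lower and 6 were opposite, with medians of 0.272 in WT and 0.299 in null. Acta2, the smooth muscle actin that marks myofibroblasts, went from 511 to 957 FPKM in WT and from 1282 to 3127 in null (1.09 ± 0.16, limma adjusted p = 0.0449). Tagln, the actin-binding protein transgelin, went from 469 to 994 FPKM in WT and from 114 to 337 in null (1.32 ± 0.12, adjusted p = 0.0143). Tropomyosin Tpm1 rose 1.83-fold in either line, from 392 to 720 FPKM in WT and from 746 to 1367 in null (0.87 ± 0.07, adjusted p = 0.0133). The other risers were the actin crosslinker Actn1 (0.67), the adaptors Pdlim7 (0.79) and Csrp2 (1.02) and caldesmon, Cald1 (0.57). Calponin, Cnn1, was at 6.85 and 14.4 FPKM in WT and at 1.05 and 2.06 in null at 0 and 16 h and did not pass (0.78, adjusted p = 0.0512). The 16-library fit had 14 members higher; 3 to 5 passed without a 1 h, a 4 h or the null 16 h library, 9 without WT 16 h, and the members all missed the threshold without either 0 h library.

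Genes for collagens and for the enzymes that modify and crosslink them held 9 rises and 1 fall among 37 tested, with medians of 0.328 in WT and 0.335 in null. Col11a1, a chain of the fibril-forming type XI collagen, had the smallest p of the group. It stood at 10.5 FPKM at 0 h, 9.94 at 1 h, 18.3 at 4 h and 58.5 at 16 h in WT, and at 7.29, 6.82, 11.2 and 39.6 in null (2.33 ± 0.08, adjusted p = 0.00377). Both lines were flat at 1 h and highest at 16 h. Col11a1 was past the threshold in 20 of 20 alternative settings, with log2 differences from 1.95 to 2.45. The major fibrillar chain Col1a1 went from 436.5 to 829 FPKM in WT and from 1030 to 1942 in null (0.92 ± 0.13, adjusted p = 0.0447). The chains of type V collagen, which nucleates type I collagen fibrils, Col5a1 (0.91) and Col5a2 (0.87), rose as well, as did the anchoring fibril collagen Col7a1 (1.17), Col16a1 (0.63), the lysyl hydroxylase Plod2 (0.75), the crosslinking oxidase Loxl2 (0.92) and the procollagen protease Bmp1 (0.87). Col6a1, of the beaded-filament type VI collagen, fell from 119 to 45.9 FPKM in WT and from 206 to 117 in null (-1.08 ± 0.16, adjusted p = 0.0469), a call that neither median-ratio scaling nor quantile normalization gave. Over the 16 libraries 21 members were higher and 4 lower. With a library of the set left out, 1 rose without either 0 h library, 3 without null 16 h, 4 without either 1 h library, 5 without either 4 h library and 14 without WT 16 h; the falls were 2 without null 16 h and 5 without WT 16 h, and Col6a1 missed the threshold without a 0 h, a 1 h or a 4 h library.

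The stretches of 250 bases before the annotated starts of Col11a1 and Acta2 are given as examples from the collagen and the contractile group. They are the mouse reference of RefSeq, build GRCm38.p6, which is not the build of the expression table, and no binding was measured here. Capitals mark CAGAC or its reverse complement GTCTG, the short SMAD-binding element, searched on both strands with no other motif. Col11a1 lies on the plus strand at chr3:114030290-114030539 and has 1 match, 134 bases before the start. Acta2 lies on the minus strand at chr19:34255374-34255623 and has 1 match, 235 bases before the start. Of all 32851 windows of this length 13861 (42.2%) hold the element, so a match is common.
Col11a1: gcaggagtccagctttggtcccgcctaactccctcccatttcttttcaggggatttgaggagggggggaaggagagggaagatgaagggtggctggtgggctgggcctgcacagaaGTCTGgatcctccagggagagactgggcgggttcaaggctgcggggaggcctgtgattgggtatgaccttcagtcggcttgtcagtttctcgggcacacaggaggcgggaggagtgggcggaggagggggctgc
Acta2: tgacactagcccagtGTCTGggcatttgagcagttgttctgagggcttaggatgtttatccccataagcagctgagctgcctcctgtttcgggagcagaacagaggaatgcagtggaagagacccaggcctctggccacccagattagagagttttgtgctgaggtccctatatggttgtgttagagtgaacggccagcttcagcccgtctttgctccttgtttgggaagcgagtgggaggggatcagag

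Other matrix genes moved in both directions. Of 33 tested, 4 rose and 1 fell. The adhesion-modulating glycoprotein Tnc went from 14.1 to 39.9 FPKM in WT and from 13.5 to 43.2 in null (1.52 ± 0.17, limma adjusted p = 0.0244). Has2, which makes hyaluronan, went from 2.59 to 8.74 FPKM in WT and from 9.18 to 71.1 in null (2.13 ± 0.32, adjusted p = 0.0456), a wider span in null, although the difference between the lines did not pass (adjusted p = 0.341). The proteoglycan Bgn (0.60) and the elastic-fibre protein Fbln2 (0.60) also rose. The basement membrane linker Nid1 fell from 79.6 to 51.5 FPKM in WT and from 156 to 88.7 in null (-0.71, adjusted p = 0.0166). Over the 16 libraries 13 were higher and 5 lower. With a library of the set left out, 11 were higher and 3 lower without WT 16 h, 2 lower without null 16 h and 1 higher without either 4 h library, and the members all missed the threshold without a 0 h or a 1 h library.

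Among 25 matrix proteases and inhibitors, 3 rose and 2 fell. The gelatinase Mmp2 went from 175.7 to 315.5 FPKM in WT and from 15.6 to 33.3 in null (0.94 ± 0.08, limma adjusted p = 0.0133), and its membrane-bound activator Mmp14 from 23.7 to 43.9 and from 59.8 to 101.7 (0.81 ± 0.07, adjusted p = 0.0133). Their inhibitor Timp2 fell from 442 to 239 FPKM in WT and from 210.3 to 124 in null (-0.82 ± 0.09, adjusted p = 0.0197). The levels of Mmp2 differed widely between the lines at either time while the 16 h to 0 h ratio was 1.796 in WT and 2.13 in null. The protease Adamts6 (0.94) rose and the collagenase Mmp13 (-1.55) fell. Of 26 integrin and focal adhesion genes 3 rose and 1 fell. The β1 integrin Itgb1 rose 1.59-fold in WT and 1.61-fold in null (0.68 ± 0.05, adjusted p = 0.0133), and the fibronectin receptor chain Itga5 went from 36.3 to 82.1 FPKM in WT and from 47.7 to 133.9 in null (1.31). The vitronectin receptor chain Itgb3 (0.76) rose and the proteoglycan Sdc4 (-0.86) fell. Without WT 16 h the counts were 9 and 6 for the proteases and 6 and 3 for the integrins; without a 1 h, a 4 h or the null 16 h library 1 or 2 proteases rose and 1 fell, and 2 integrins rose; and without either 0 h library the members of both groups missed the threshold.

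Growth factors and cytokines held 6 rises and 2 falls among 27 tested, with medians of 0.513 in WT and 0.908 in null. All 3 platelet-derived growth factor genes that passed are mitogens of mesenchymal cells. Pdgfb went from 6.07 to 51.4 FPKM in WT and from 8.20 to 35.2 in null (2.43 ± 0.37, limma adjusted p = 0.0474), Pdgfc from 3.56 to 10.1 and from 8.89 to 23.7 (1.30 ± 0.08, adjusted p = 0.00952), and Pdgfa from 8.76 to 15.2 and from 17.4 to 33.6 (0.82). Pdgfb was already at 59.2 FPKM at 1 h in WT and at 26.7 in null, whereas Pdgfc was at 3.90 and 8.83. The monocyte chemokine Ccl2 (1.43) and the lymphatic growth factor Vegfc (0.92) rose beside Ccl17, and the stem cell factor gene Kitl fell with Cxcl1 (-1.37, from 8.99 to 3.33 FPKM in WT and from 32.8 to 10.7 in null). Over the 16 libraries 13 were higher and 6 lower. Without WT 16 h 12 rose and 5 fell, without null 16 h 3 and 2, without either 4 h library 3 and 1, and without either 1 h library 1 and 1; without null 0 h 1 rose, and without WT 0 h the members all missed the threshold.

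Of 16 IGF-binding proteins and imprinted growth genes, 1 rose and 3 fell. Igfbp4, which sequesters insulin-like growth factors, went from 325 to 167 FPKM in WT and from 84.9 to 40.2 in null (-1.01 ± 0.05, limma adjusted p = 0.00952), and Igfbp6 fell by 1.30. Igfbp7, a secreted relative with low affinity for these factors, rose 2.02-fold in WT and 2.01-fold in null (1.00 ± 0.08, adjusted p = 0.0133). Mest was the third fall. The falls were 1 without null 16 h or a 1 h library and 5 without WT 16 h, and the members all missed the threshold without either 0 h library.

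The called genes reached 16 h by different routes. Their differences from 0 h at 1, 4 and 16 h share the 0 h libraries, so they are given side by side and not correlated. The 121 risers had median log2 differences of 0.215 at 1 h, 0.728 at 4 h and 0.933 at 16 h, and the 124 fallers -0.0674, -0.449 and -0.935. At 4 h the risers' median was close to its 16 h value and the fallers' was not. Junb, an AP-1 subunit, was at 22.0 FPKM at 0 h, 190.8 at 1 h, 108.6 at 4 h and 73.8 at 16 h in WT, and at 20.8, 89.5, 66.9 and 66.8 in null. It was highest at 1 h in both lines.

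**Figure D3:**
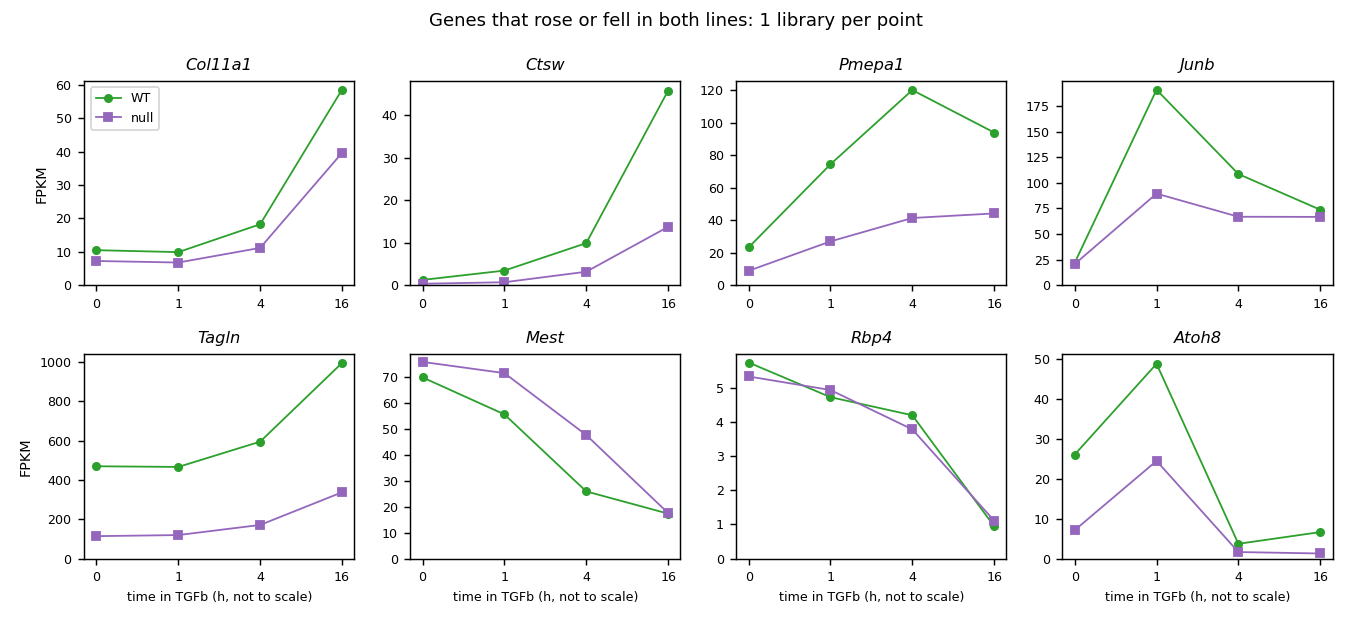
FPKM at 0, 1, 4 and 16 h of TGFβ (time axis not to scale) in WT (green circles) and null cells (purple squares) for 8 genes that rose or fell at 16 h in both lines, 1 library per point. Col11a1 is highest at 16 h, Junb peaks at 1 h, and Atoh8 is high at 1 h before it falls; the genes were picked to show these shapes after their values were seen.

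Among stress and metabolic groups, the targets of the amino acid and endoplasmic reticulum stress pathways held 4 rises and no fall in 35, and 27 members were higher in both lines (median 0.314). They were asparagine synthetase, Asns, from 49.3 to 76.1 FPKM in WT and from 108 to 167 in null (0.62 ± 0.05, limma adjusted p = 0.0133), and the mitochondrial folate enzymes Shmt2 (0.74), Aldh1l2 (0.89) and Mthfd2 (0.47). The fit of all 16 libraries had 24 higher and 1 lower; 1 or 2 rose without a 1 h, a 4 h or the null 16 h library and 18 without WT 16 h, and the members all missed the threshold without either 0 h library. The cell-cycle checkpoint genes Gadd45a (1.17) and Plk2 (1.07), both on the p53 target list, rose, while the other 19 did not pass. In the oxidative stress group of 20, the glutathione transferase Gstm1 fell (-1.33, from 8.74 to 3.47 FPKM in WT and from 48.1 to 15.8 in null) and 14 members were lower in both lines. In the hypoxia and glycolysis group of 25 the vasodilator peptide gene Adm (-1.59) and phosphoglycerate kinase, Pgk1 (-0.51), fell. No member of the mitochondrial respiratory chain, ribosome biogenesis or cholesterol and fatty acid synthesis groups passed in limma. At an unadjusted p under 0.05 in limma, 1 of the 33 respiratory chain genes was higher and 6 lower. Of 23 ribosome biogenesis genes 2 were higher, and of 31 cholesterol and fatty acid genes 6 were higher. Of all 10976 genes 2469 had such a p in either direction, a share at least as large as in these groups. The group medians were -0.106, 0.16 and 0.241. In the 16-library fit 6 cholesterol genes and 3 ribosome biogenesis genes were higher and no member of either group was lower. These are larger shares of their groups than the 755 higher genes are of all 11045.

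**Figure D4:**
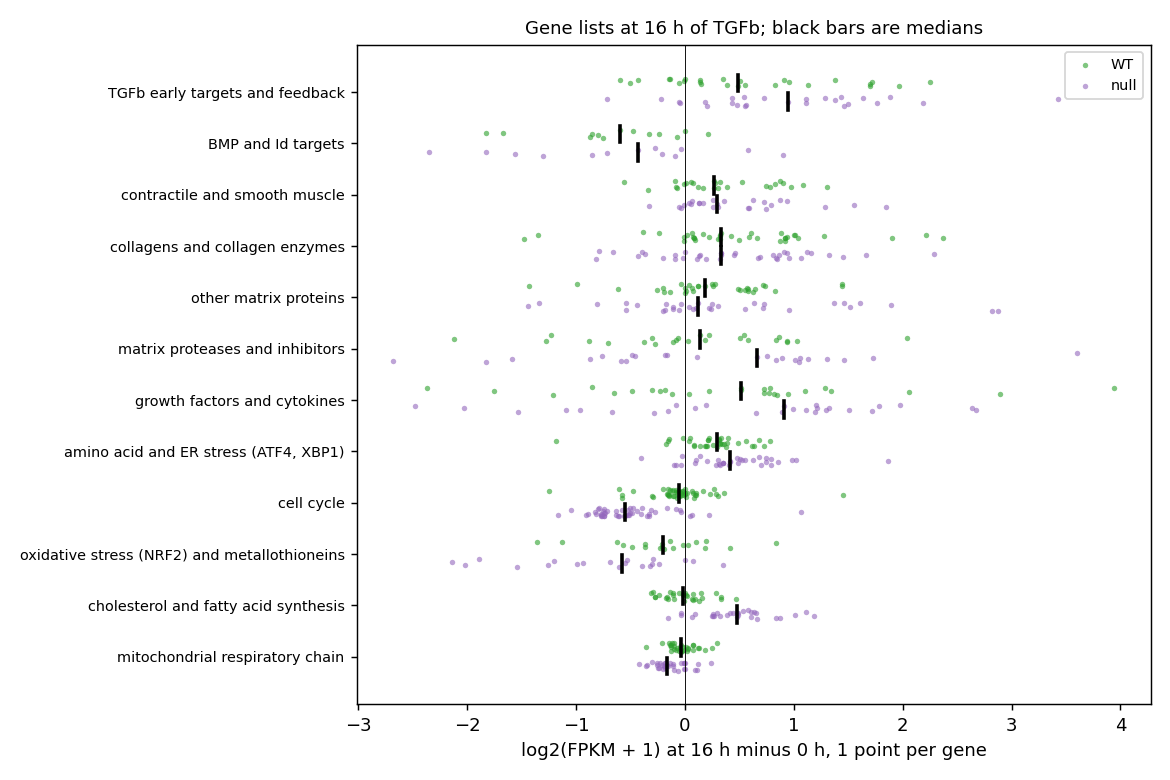
Difference between 16 h and 0 h as log2(FPKM + 1) for tested genes of 12 groups, WT in green above and null in purple below, with the median of each group as a black bar. The medians of the collagen group are alike (0.328 and 0.335), those of the cell cycle (-0.0511 and -0.554) and of cholesterol synthesis (-0.0186 and 0.479) are not.

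Each of the remaining groups held at most 3 calls. Of all genes 1.10% rose and 1.13% fell. The secreted WNT target Wisp1 (1.42), the receptor Fzd2 (0.68) and the ligand Wnt9a (1.07) rose among 24 WNT pathway genes. That is a larger share than among all genes. Snai1 was the riser among 11 epithelial-mesenchymal transition genes, Junb the riser and the receptor tyrosine kinase inhibitor Spry2 (-1.04) the faller among 29 immediate early genes. The Polycomb subunit Cbx6 (-0.59) fell among 30. No growth factor receptor, interferon response gene or replication-dependent histone passed in limma, of 22, 22 and 5 tested. At an unadjusted p under 0.05, 4 receptors were higher and 9 lower, 3 interferon genes were higher and 3 lower, and no histone gene was counted. Of all 10976 genes 2469 had such a p in either direction, a share close to that of the interferon genes and below that of the receptors. In the 16-library fit 3 receptors were higher and 9 lower, and 2 interferon genes higher and 4 lower. Of all 11045 genes 755 were higher and 1384 lower in that fit, shares close to those of the interferon genes. The share of receptors that were lower was larger than that of all genes. Without either 0 h library no gene named in this paragraph or the one on stress and metabolic groups passed.

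The size of the 16 h response differed between WT and null in 254 of 11045 genes (2.30%), tested in limma over all 16 libraries as the WT response minus the null response. The null baseline of this test is fitted from the 0, 1 and 4 h null libraries of set A. Its time effects are shared with the other series, those of cells given Arkadia included. An estimate can therefore differ from the plain difference between the 2 pairs of libraries. In 183 of them the response was higher in WT and in 71 lower. With median-ratio scaling the split was 123 and 73. The count moved with the libraries: it was 44 when null 0 h of the first set was dropped and 80 when null 1 h was, 81 without either null library of the second set, 117 and 106 without the 0 h and 1 h libraries of cells with wild-type Arkadia, and 115 and 140 without those of the sim cells. It was 101 without the sim cells at 4 h, 426 without WT 1 h and 435 without WT 4 h, and 12 genes passed within the first set alone. Of the 245 genes called over both lines 3 also differed between them.

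Several TGFβ targets had a larger response in null cells. Among the genes of the target group the WT response was lower for the matricellular gene Cyr61 (-0.98 ± 0.14 on the log2 scale, SE, limma adjusted p = 0.0174), the protease inhibitor Timp3 (-1.20 ± 0.22, adjusted p = 0.0334) and Lrrc32, which anchors latent TGFβ (-1.79 ± 0.30, adjusted p = 0.0283), and no member had a higher one. Timp3 was at 464 and 511 FPKM at 0 and 16 h in WT and at 291 and 806 in null. Cyr61 stood at 192 FPKM at 0 h, 229 at 1 h, 342 at 4 h and 250.4 at 16 h in WT, and at 240.1, 425, 570 and 586 in null. For both genes the null level was highest at 16 h and the WT level at 4 h. Ctgf, a related matricellular gene, stood at 663 and 1449 FPKM in WT and at 52.9 and 578 in null, and its difference did not pass (-2.60 ± 0.62, adjusted p = 0.0768). Smad7, Pmepa1, Ldlrad4, Junb and Snai1 gave no call for a difference, with estimates between -0.32 (Pmepa1) and 0.26 (Ldlrad4).

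The 33 other matrix genes differed between the lines in both directions, with a lower WT response in 3 and a higher one in 2. Matrix genes with a larger response in null included Fbn1, the microfibril protein fibrillin-1. It stood at 35.8 and 56.5 FPKM at 0 and 16 h in WT and at 4.82 and 20.6 in null (-1.28 ± 0.16, limma adjusted p = 0.0113). The elastogenic protein Fbln5 was another (-0.86 ± 0.17, limma adjusted p = 0.0392). Tnfrsf11b, the decoy receptor osteoprotegerin, was at 52.0 and 32.3 FPKM in WT and at 0.886 and 10.0 in null (-3.29 ± 0.34, adjusted p = 0.00748). It was lower at 16 h in WT and higher in null. Btc, an epidermal growth factor receptor ligand, went from 32.9 to 5.57 FPKM in WT and was under 1 in null at both times (-2.10 ± 0.23, adjusted p = 0.00931). At such a level a fall in null could hardly show on this scale. Col6a2 (-0.83) and Igfbp2 (-1.87) were also lower in the WT response. Igfbp2 was at 106.6 and 50.7 FPKM in WT and at 10.6 and 17.5 in null.

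Genes with a higher response in WT included several that were lower at 16 h in null and nearly level in WT. The stromelysin Mmp3 was at 16.4 and 1.72 FPKM in null and at 0.383 and 0.323 in WT at 0 and 16 h (2.56 ± 0.17, limma adjusted p = 6.65e-04). The metallothioneins Mt1 and Mt2, which bind zinc and copper, were at 184 and 48.8 and at 84.4 and 18.4 FPKM in null, and at 24.5 and 24.2 and at 9.44 and 12.9 in WT (1.75 ± 0.27, adjusted p = 0.0223, and 2.31 ± 0.30, adjusted p = 0.0157). The quinone reductase Nqo1 was at 16.0 and 3.20 FPKM in null and at 1.56 and 1.19 in WT (1.70 ± 0.20, adjusted p = 0.0113). In each of these the null 0 h level was far above WT, and the lines were closer at 16 h. Mmp3 was so low in WT that a fall there could hardly show on this scale. Among hypoxia genes Pdk1 (0.92) and Egln3 (1.55) were among the genes with a higher WT response.

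**Figure D5:**
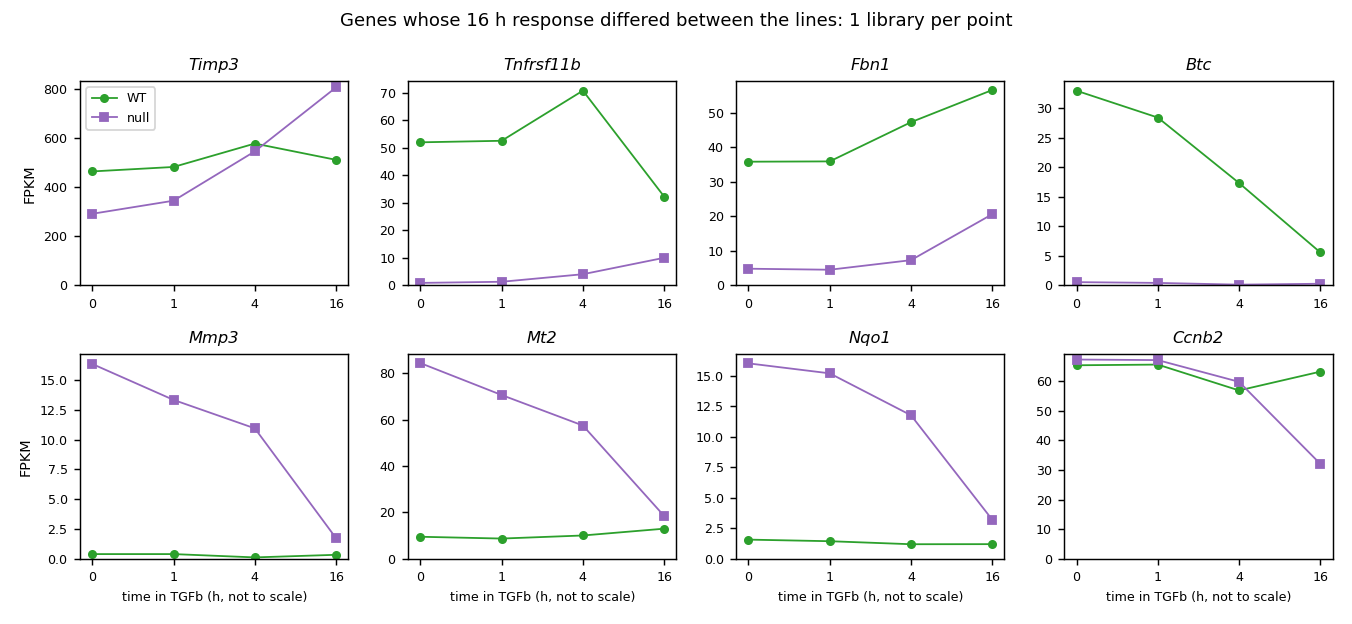
FPKM at 0, 1, 4 and 16 h of TGFβ (time axis not to scale) in WT (green circles) and null cells (purple squares) for 8 genes whose 16 h response differed between the lines, 1 library per point; the genes were picked after their values were seen. Timp3 is highest at 4 h in WT (577 FPKM) and at 16 h in null (806 FPKM), and Mmp3, Mt2, Nqo1 and Ccnb2 come down between 4 and 16 h in null.

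Cell cycle genes separated the lines as a group. Of 50 tested, 12 had a higher response in WT and no member a lower one, beside 2.30% of all genes in either direction, and the median log2 difference from 0 h was -0.0511 in WT and -0.554 in null. Ccnb2, a mitotic cyclin, stood at 65.5, 65.7, 57.0 and 63.3 FPKM at 0, 1, 4 and 16 h in WT and at 67.4, 67.2, 59.9 and 32.1 in null (1.01 ± 0.09, limma adjusted p = 0.00276). WT ended where it began, and null dropped after 4 h. Top2a, the topoisomerase of dividing cells, was at 196 and 186 FPKM in WT and at 177 and 105 in null (0.69 ± 0.12, adjusted p = 0.0332), and Cdc20, an activator of the anaphase-promoting complex, at 44.3 and 43.5 in WT and 83.5 and 44.7 in null (0.80 ± 0.13, adjusted p = 0.0245). The others were Ccnb1, the mitotic kinases Aurka, Aurkb and Plk1, Birc5, Kif20a, Ube2c, Cdca8 and the ribonucleotide reductase subunit Rrm2. The count was 8 with median-ratio scaling and 13 with quantile normalization, and 2 without null 0 h, 4 without null 1 h or either null library of the second set, 6 without the 0 or 1 h library of cells with wild-type Arkadia, 6 or 7 without a sim library, and 16 without WT 1 h or WT 4 h. Within the first set alone no member passed in limma. The estimate was positive for 44 of the 50 as reported and in each of these settings other than median-ratio scaling, which gave 43. At an unadjusted p under 0.05 the difference was counted in 35 of the 50, beside 1928 of all 11045 genes. Over both lines 1 member passed, the G1 cyclin Ccnd3, which fell from 39.0 to 25.9 FPKM in WT and from 45.6 to 32.4 in null (-0.53, adjusted p = 0.0337), a call that median-ratio scaling did not give. Of the 50, 31 were lower in both lines, 2 higher in both and 17 opposite. At an unadjusted p under 0.05 in the 8-library fit 11 were lower and 1 higher, a share close to the 2469 of all 10976 genes in either direction. With all 16 libraries 18 were lower and no member higher, a larger share than the 1384 of all 11045 genes that were lower. In bulk RNA fewer dividing cells and less of these RNAs in each cell cannot be told apart.

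Markers of other cell types were mostly low. The summed level of the endothelial list lay between 8.41 and 10.5 FPKM over the 4 libraries and that of the haematopoietic list between 7.32 and 17.1. Of each list 2 members were tested and no member passed in limma. At an unadjusted p under 0.05, 1 endothelial marker was higher, beside 2469 of all 10976 genes in either direction. The summed smooth muscle list went from 1017 to 2003 FPKM in WT and from 1428 to 3502 in null, with Acta2 and Tagln, which the contractile group also holds. Of 4 neural markers 2 rose, the tubulin Tubb3, from 5.52 to 14.97 FPKM in WT and from 1.74 to 4.54 in null (1.15, adjusted p = 0.0301), and the adhesion molecule Ncam1, from 8.25 to 21.8 and from 4.01 to 18.3 (1.62, adjusted p = 0.0456). Of 6 epithelial markers the keratin Krt19 fell, from 519 to 267.5 FPKM in WT and from 4.91 to 1.53 in null (-1.09, adjusted p = 0.0133). The WT cells thus began with a far higher Krt19 level than null cells. Of the 6 epithelial markers 3 were higher in both lines, 2 lower in both and 1 opposite, with a median of 0.208. Krt14 (2.18, limma adjusted p = 0.075), Krt8 (1.10) and Krt7 (0.41) were higher but did not pass. With all 16 libraries 3 epithelial markers were higher and 1 lower. Of 12 fibroblast markers Col1a1 rose and Ly6a, the surface antigen Sca-1, fell (-2.22 ± 0.22, adjusted p = 0.0166). The part of these marker differences in the results above was not tested.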

How the data were processed

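The authors deposited 1 table of FPKM values for 16 fibroblast libraries, with 1 RefSeq accession per gene. Build mm9, Cufflinks 2.2.1, STAR 2.3.0e, CASAVA 1.8.2 and SAMtools are named, per the submitters' processing notes; their order, options and annotation: not given in the sources used here. In the first set 175 positive values lay under 0.001 FPKM, which are no whole reads, so depth is unknown and no counting interval is given.

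Values were analysed as log2(FPKM + 1) for genes with a mean of at least 1 FPKM; this scale understates changes of low genes. Genes were tested with limma-trend (limma 3.58.1, R 4.3.3) and Benjamini-Hochberg adjustment, with line as a block and time as a factor (3 residual degrees of freedom). The difference between lines used all 16 libraries and the 5 time courses as a block, with terms for WT at 1 and 4 h and at 16 h. Groups came from the labels. On simulated data the first test called 89 of 100 genes changed by 1 and 100 of 100 changed by 2 on the log2 scale, with 13 of 10720 unchanged genes called. The changed genes had a mean of at least 5 FPKM and the same change in both lines. The noise was normal and independent, with each gene's variance averaged with the median variance. These settings follow the model of the test, so the recovery does not measure how reliable the calls in the real libraries are.

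Named genes were the 15 largest rises and falls that reached 5 FPKM in the higher library of each line, the 10 largest differences between lines each way, and up to 5 members of each of 25 gene lists and 9 marker lists with the smallest p; other list members that passed are named to account for a count. Small RNA genes and 211 drop-out genes (under 0.1 FPKM in a library, at least 5 in another) were not named by size, and some genes that the rule names are not reported here. Members, lists and tests were chosen with earlier results of these data known. Alternatives were other pseudocounts, filters, scalings, variance settings and libraries; counts per list with a library left out were added after seeing the data.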

Additional observations from a re-analysis of the deposited data

Results flagged for a closer look

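The test of the difference between lines singled out the 19 genes given here by the size of the WT response minus the null response at 16 h (log2 scale, limma over 16 libraries, adjusted p under 0.05 for each). Higher in WT were Tsr2 (2.78), Mmp3 (2.56), Mt2 (2.31), the keratin Krt13 (2.17), the recombination protein Rad54l (2.07), the lysosomal lipase Lipa (1.94), glutamine synthetase Glul (1.94), the myelin protein Pmp22 (1.92), Apol9a (1.91) and the hormone-sensitive lipase Lipe (1.86). Lower in WT were Arhgef1 (-3.95), Tnfrsf11b (-3.29), the spindle protein Psrc1 (-2.85), the protease inhibitor Serpina3h (-2.50), the forkhead factor Foxs1 (-2.12), Btc (-2.10), 2310035C23Rik (-1.88), the pyrophosphate transporter Ank (-1.87) and Igfbp2 (-1.87). Lipa stood at 24.9 and 31.1 FPKM at 0 and 16 h in WT and at 190 and 62.9 in null. Pmp22 was at 36.0 and 97.1 FPKM in WT and at 84.8 and 68.1 in null. Psrc1 was at 15.2 and 0.230 FPKM in WT and at 30.1 and 17.6 in null, so its value rests on the low WT 16 h library. Serpina3h and Apol9a have near-identical copies, so reads may be shared and their values are uncertain.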

How the results depend on the processing

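The genes called at 16 h over both lines numbered 155 with a pseudocount of 5 (79 higher, 76 lower), 477 without small RNA and drop-out genes (235 and 242), 2139 with all 16 libraries (755 and 1384), 14 with only the 4 libraries at 0 and 16 h (7 and 7) and 114 with an added log2 difference of 1 (56 and 58). They ranged from 10 to 1561 with a library left out (4 to 509 higher, 6 to 1052 lower). The difference between lines held 12 genes within the first set (5 higher and 7 lower in WT) and 44 to 435 with a library left out (25 to 292 and 19 to 143); it could not be estimated without WT 0 h, WT 16 h or null 16 h. Genes up in both lines by log2 1 numbered 113, down 121 and opposite 34 with a pseudocount of 0.1, and 30 up and 17 down with one of 5; without small RNA and drop-out genes r was 0.506 with 2 opposite. The remaining pseudocounts, filters, scalings and variance settings kept these counts within 1.5 times, and no gene named by the rule that had passed changed sign in any setting. Among the genes named by the rule, median-ratio scaling ended the calls of Bmp4, Ccnd3 and Igfbp6. Quantile normalization ended those of Bmp4, Igfbp6, Junb, Col1a1, Pgk1, Sdc4 and Mmp13, and either scaling made Cnn1 pass. Col6a1, a list member outside the rule, lost its call with either. Median-ratio scaling also moved the median of all genes from -0.0586 to -8.23e-04. The cause of these shifts was not tested. The line was a block in each fit, which pairs 16 h with 0 h within a line, and the fit of the 4 libraries is that pairing alone; the labels carry no replicate numbers for any other. Unknown depth limits statements on low genes.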
